A study of Mus musculus with 6 samples.

Results

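The genes described here are 9 markers that are commonly used to recognise glial cells and radial glia, the elongated progenitors of neural tissue: Slc1a3, Fabp5, Fabp7, Glul, Sox9, Rlbp1, Gfap, Sox10 and S100b. They were chosen by name, with earlier results of these data known, as were the gene lists set beside them below. Every probe set that the platform annotation assigns to exactly 1 of these symbols was used. A probe set is a group of short probes that together report 1 transcript. All 9 genes were measured, by 23 of the 45037 probe sets tested, among 18193 genes in all. The lenses came from mouse embryos at embryonic day 19.5, shortly before birth, on a mixed background of C57BL/6 and FVB/N. The mutant group held 3 embryos with a lens-specific conditional loss of Notch2, a receptor of the Notch pathway, and the wild type group held 3 littermates without that loss. Each of the 6 arrays carried RNA from the 2 pooled lenses of 1 embryo, so the arrays of a group were biological replicates. The transgene that removes Notch2, its promoter, the mutant allele and the alleles carried by the controls are not named in these sources.

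Glia support, feed and insulate neurons. Müller cells, the main glia of the retina, take glutamate up from the space around neurons through the transporter GLAST (Slc1a3), convert it to glutamine with glutamine synthetase (Glul) and return retinoid to photoreceptors with the help of CRALBP (Rlbp1). Sox9, a transcription factor, is present in retinal progenitors and Müller cells, and Fabp7, a brain lipid-binding protein, marks radial glia and is known as a target of Notch signalling in neural progenitors. Gfap is the intermediate filament of mature or reactive astrocytes, S100b is a calcium-binding protein of astrocytes and Schwann cells, and Sox10 directs the development of Schwann cells and oligodendrocytes. The lens itself holds no neurons or glia, but several of these genes are not restricted to glia: Sox9 also acts in early eye and cartilage development, Glul occurs in many tissues and Fabp5 is abundant in epithelia.

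The deposited values are log2 values that had been centred, so that the median of every probe set over the 6 arrays was 0. They give differences between arrays and no level, and whether glial transcripts were present at all, or at the background of the array, could not be checked, nor could a level be compared between genes. Unless stated otherwise, a value is a centred log2 value and a difference is mutant minus wild type on the log2 scale, with the standard error (SE), the 95% interval and the Benjamini-Hochberg adjusted p of limma's moderated test over all 45037 probe sets. In whole-lens RNA, fewer cells of a type and less RNA per cell cannot be told apart. Array standard deviations over all probe sets lay between 0.22 and 0.38, the highest in wild type 3. The 9 hybridization control probe sets, spiked-in RNAs that report the hybridization and not the sample, separated the arrays into wild type 1, wild type 2 and mutant 1, with means between -1.56 and -1.04, and wild type 3, mutant 2 and mutant 3, with means between 1.04 and 1.56. No label names what this separation is, and both sets of arrays held both genotypes. Neither of the 2 Notch2 probe sets passed (differences of 0.49, adjusted p = 0.752, and -0.42, adjusted p = 0.514), and no source places them inside or outside the removed part, which leaves the genotypes unchecked by the arrays.

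Of the 9 genes, only Slc1a3 rose past the threshold, and none fell. Slc1a3 was 2.56-fold higher in mutant lenses by its most variable probe set over the 6 arrays, the 1 taken per gene wherever genes are counted. That is a difference of 1.36, whereas the mean over the 6 probe sets of Slc1a3 differed by 0.83. Fabp7, Sox9 and Glul had positive differences of 1.87, 1.01 and 0.78 with every mutant array above every wild type array, and did not pass. Fabp5 had a negative difference of -0.66 with every mutant array below every wild type array, and did not pass either. Rlbp1 (0.34), Gfap (-0.24), Sox10 (0.06) and S100b (-0.32) overlapped between the groups.

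Among the 23 probe sets, 1 was called higher and 0 lower at an adjusted p below 0.05, where 0.293% of all probe sets were called higher and 0.469% were called in either direction. At an unadjusted p below 0.05 there were 12, of which 10 had positive and 2 negative differences, where 11.6% of all probe sets reached that p. In 8 of the 23 all mutant arrays lay above all wild type arrays, which held for 8.73% of all probe sets. In 3 they lay below, against 9.1%. Probe sets of 1 gene are not independent, and Slc1a3 alone gave 5 of the 10 and 3 of the 8. By 1 probe set per gene, 5 of the 9 genes had an unadjusted limma p below 0.05 (4 positive, 1 negative), beside 15.6% of all genes. All mutant arrays lay above all wild type arrays for 4 of the 9, beside 9.48% of all genes. The median difference of the 9 genes was 0.34, while that of all 18193 genes was -0.03. The count of 1 rests on single arrays and on the model. It was 0 when wild type 1, wild type 3, mutant 1, mutant 2 or mutant 3 was left out, and 2 without wild type 2. It was 7 when the separation of the arrays by hybridization controls was fitted as a block. That block was chosen after the data were seen, and with it the calls over all probe sets went from 211 to 790.

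**Figure D1:**
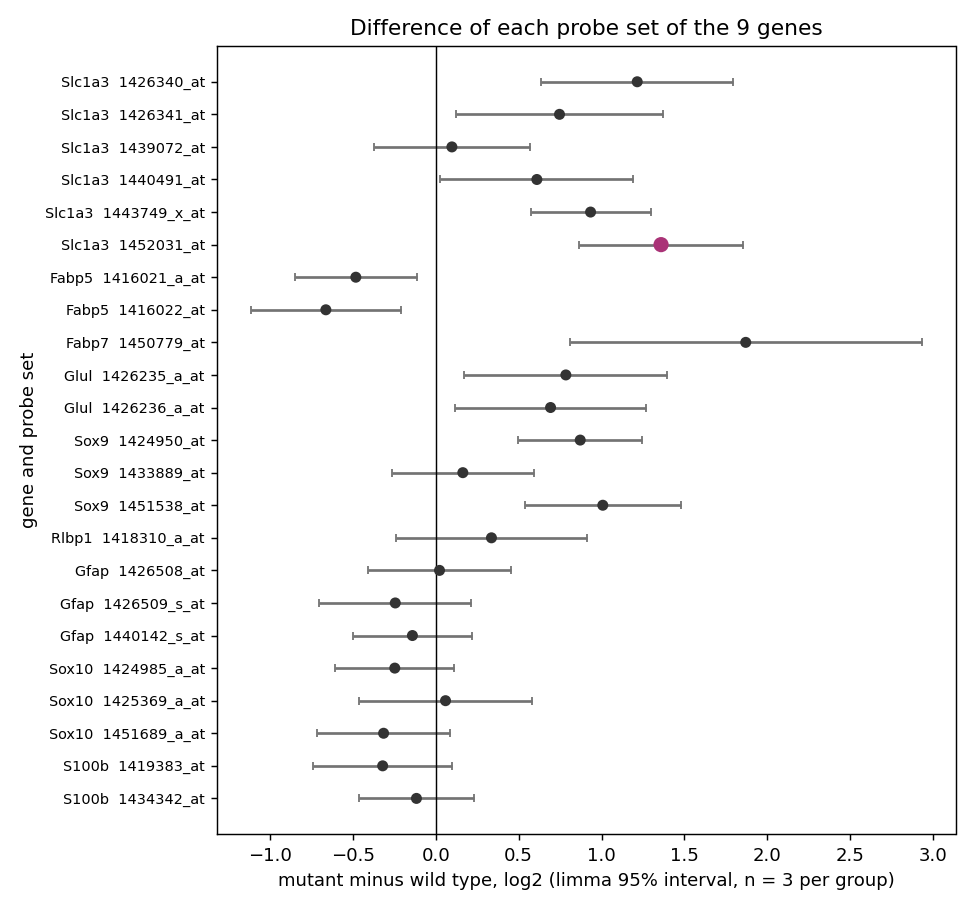
Difference between mutant and wild type lenses (horizontal axis, log2) for each of the 23 probe sets, named by gene and probe set on the vertical axis, with limma's 95% intervals; the larger purple point marks the 1 probe set with an adjusted p below 0.05. Slc1a3, Fabp7, Glul and Sox9 lie mostly to the right of 0, Fabp5 lies to the left, and Gfap, Sox10 and S100b straddle 0.

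Glutamate handling held the gene with the clearest difference. Slc1a3 encodes the transporter that clears glutamate in Müller cells and radial glia. By probe set 1452031_at the wild type arrays 1, 2 and 3 read -0.86, -0.34 and -0.97, while mutant arrays 1, 2 and 3 read 0.90, 0.67 and 0.34. The groups did not overlap, and the group means were -0.72 ± 0.34 and 0.64 ± 0.28 (SD, n = 3). The difference was 1.36 (SE 0.22, 95% interval 0.86 to 1.85, limma adjusted p = 0.0428). Because values are centred on the median, the highest wild type and lowest mutant value of a probe set that separates the groups are mirror images, and the gap between them carries the information. The call was lost when any array except wild type 2 was left out (adjusted p from 0.0638 without mutant 3 to 0.204 without wild type 1), while the difference stayed between 1.23 and 1.55.

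The other probe sets of Slc1a3 did not all behave alike. Probe set 1426340_at read -0.50, -0.28 and -1.25 in wild type and 0.74, 0.60 and 0.28 in mutants, a difference of 1.22 (SE 0.26, limma adjusted p = 0.0785). Probe set 1443749_x_at, whose suffix marks probes that may bind other transcripts, read -0.45, -0.69 and -0.35 against 0.58, 0.37 and 0.35, a difference of 0.93 (SE 0.16, limma adjusted p = 0.0503). Both also separated the groups without passing. Probe set 1440491_at read 0.02, -0.06 and -0.27 against 0.48, 1.07 and -0.02 (difference 0.61, SE 0.26, limma adjusted p = 0.404), with mutant 3 inside the wild type range. Probe set 1426341_at read -0.97, -0.93 and 0.07 against 0.34, 0.13 and -0.07 (difference 0.75, SE 0.28, limma adjusted p = 0.328). Probe set 1439072_at read -0.26, -0.12 and 0.37 against 0.12, 0.32 and -0.15, a difference of 0.10 (SE 0.21, limma adjusted p = 0.910). Wild type 3 was therefore the lowest wild type array by 1426340_at, 1452031_at and 1440491_at and the highest by 1426341_at, 1439072_at and 1443749_x_at. All 6 differences were positive, from 0.10 to 1.36, and 3 of the 6 probe sets separated the groups. Where each lies in the transcript is not named in these sources.

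**Figure D2:**
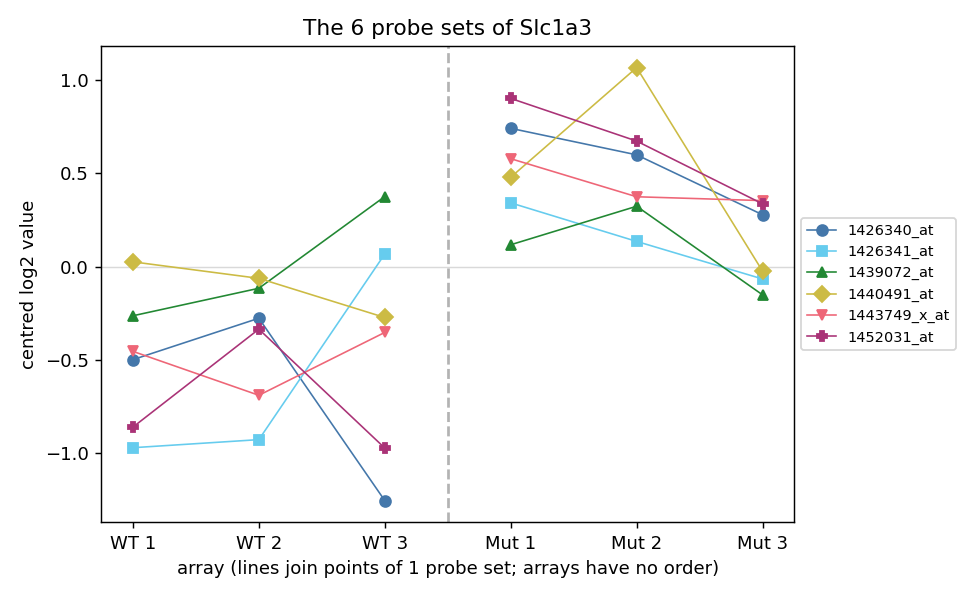
Centred log2 values (vertical axis) of the 6 Slc1a3 probe sets on each of the 6 arrays (horizontal axis, wild type left and mutant right of the dashed line); lines only join points of 1 probe set. Wild type 3 spreads from -1.25 to 0.37, whereas mutant 1 reads above 0 by all 6.

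Glul, the enzyme that turns the glutamate taken up into glutamine, gave nearly the same values by both of its probe sets. Probe set 1426235_a_at read -0.38, -0.07 and -1.02 on the wild type arrays, in the order of their replicate numbers, and 0.72, 0.09 and 0.07 on the mutant arrays. Mutant 1 was high, wild type 3 was low, and the remaining 4 arrays lay between -0.38 and 0.09. The difference was 0.78 (SE 0.27, 95% interval 0.17 to 1.40, limma adjusted p = 0.288), and 0.69 (SE 0.26, limma adjusted p = 0.327) by 1426236_a_at. With the hybridization control separation as a block both passed (adjusted p = 0.0288 and 0.0337), at 1.02 (SE 0.15) and 0.91 (SE 0.15). That block was chosen after the data were seen, and Glul passed in no other alternative run.

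Other genes of glutamate uptake and the glutamine cycle held differences of both signs. By limma none of 17 measured passed, 5 had an unadjusted p below 0.05 (2 positive, 3 negative), where 15.6% of all genes by 1 probe set each reached that p and 8.22% did so with a positive difference. In the list 8 had positive and 9 negative differences, and the median was -0.06, beside -0.03 over all genes. Slc1a2, the other main glial glutamate transporter, differed by 1.09 (SE 0.24, limma adjusted p = 0.0887), although the lowest of its 5 probe sets read -0.21. Slc38a5, a glutamine transporter, differed by -1.15 (SE 0.22, limma adjusted p = 0.0622), and Slc1a4, a transporter of neutral amino acids, by 0.51 (SE 0.15, limma adjusted p = 0.194). The lowest of the 3 Slc1a4 probe sets read -0.22.

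The lipid-binding proteins Fabp7 and Fabp5 had differences of opposite sign, neither of which passed. Fabp7, which binds long-chain fatty acids in radial glia, had the largest difference of the 9 genes and the largest spread. Its single probe set 1450779_at read -1.49, -0.15 and -2.28 among wild type lenses and 0.49, 1.05 and 0.15 among mutant lenses. The groups did not overlap, but wild type 2 lay closer to mutant 3 than to either other wild type array. The means were -1.31 ± 1.08 and 0.56 ± 0.46 (SD, n = 3) and the difference was 1.87 (SE 0.47, 95% interval 0.81 to 2.93, limma adjusted p = 0.135). Without wild type 2 it was 2.45 and passed (adjusted p = 0.0305), and without wild type 3 it was 1.38 (adjusted p = 0.440).

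Fabp5, the epidermal relative that is also expressed in progenitors and epithelia, was the only one of the 9 genes with every mutant array below every wild type array by the probe set taken. Probe set 1416022_at read 0.16, 0.10 and 0.18 in wild type and -0.84, -0.60 and -0.10 in mutants, a difference of -0.66 (SE 0.20, 95% interval -1.11 to -0.21, limma adjusted p = 0.219). The wild type arrays were close to each other, and the mutant arrays were spread. The second probe set, 1416021_a_at, separated the groups too, at -0.48 (SE 0.16, limma adjusted p = 0.277). Among 12 measured fatty acid and retinoid carriers limma called none, 5 had an unadjusted p below 0.05, beside 15.6% of all genes, and the median of the 12 was -0.07. The smallest p belonged to Crabp1 (1.09, SE 0.21) and Crabp2 (0.82, SE 0.18), which bind retinoic acid, and to Fabp3 (0.90, SE 0.18), a fatty acid carrier of muscle, with limma adjusted p = 0.0623, 0.0795 and 0.0626. The lower of the 2 Fabp3 probe sets read -0.09.

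Sox9 was the transcription factor among the markers with the larger differences. By 1451538_at it read -0.48, -0.25 and -0.45 among wild type lenses and 1.03, 0.25 and 0.56 among mutant lenses. The wild type arrays lay close together and mutant 1 was the highest. The difference was 1.01 (SE 0.21, 95% interval 0.54 to 1.48, limma adjusted p = 0.0738). Probe set 1424950_at read -0.34, -0.29 and -0.60 against 0.63, 0.29 and 0.46, with a difference of 0.87 (SE 0.16, limma adjusted p = 0.0610). Both separated the groups and passed with the hybridization control block (adjusted p = 0.0332 and 0.0272), which was chosen after the data were seen. The third probe set, 1433889_at, differed by 0.16 (SE 0.19, limma adjusted p = 0.811) with overlapping groups.

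Genes that Sox9 is known to drive in cartilage, and its partners, had differences of both signs, 9 positive and 6 negative. Of the 15 measured, 2 rose and 0 fell, where 0.489% of all genes rose and 0.258% fell, and the median difference was 0.13. The 2 were the fibrillar collagen genes Col11a1 (1.51, SE 0.21, limma adjusted p = 0.0358) and Col2a1 (1.38, SE 0.20, limma adjusted p = 0.0385), which the vitreous and retina also express. Col9a3 passed only by another probe set than the one taken (1.51, SE 0.17, limma adjusted p = 0.0172), and Col9a1 differed by 0.93 (SE 0.17, limma adjusted p = 0.0587). The 6 negative differences, of Acan, Comp, Cnmd, Matn1, Col11a2 and Sox6, ran from -0.33 to -0.0032 with limma adjusted p of 0.668 or more; these 6 were named after their values were seen. Sox8, the closest relative of Sox9 and Sox10, read -0.78, -0.20 and -1.19 in wild type and 0.98, 1.22 and 0.20 in mutants (1.52, SE 0.31, limma adjusted p = 0.0710).

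Rlbp1, the retinaldehyde-binding protein of Müller cells and pigment epithelium, read 0.03, 0.05 and -0.44 in wild type and 0.78, -0.10 and -0.03 in mutants by its single probe set. Mutant 1 was high and wild type 3 low, and the other 4 arrays lay between -0.10 and 0.05. The difference of 0.34 (SE 0.26, 95% interval -0.24 to 0.91, limma adjusted p = 0.689) was 0.06 without mutant 1. Of 10 visual cycle genes, which renew the light-sensitive retinoid, limma called none, and the median was -0.0017. An unadjusted p below 0.05 was reached by 2 of the 10, near the 15.6% of all genes. Those with the smallest p were Rbp3 (0.92, limma adjusted p = 0.0976), the retinoid carrier made by photoreceptors, Rdh10 (0.74, limma adjusted p = 0.104), a retinol dehydrogenase, and Rdh5 (-0.38, limma adjusted p = 0.488). The lower of the 2 Rbp3 probe sets read -0.06.

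Gfap, Sox10 and S100b, the markers of mature astrocytes, Schwann cells and oligodendrocytes among the 9 genes, showed no difference that passed. Gfap by 1426509_s_at, whose suffix marks probes shared by several transcripts, read 0.06, -0.09 and 0.12 in wild type and -0.64, 0.06 and -0.06 in mutants. Mutant 1 was low and the other 5 arrays lay between -0.09 and 0.12. The difference was -0.24 (SE 0.20, 95% interval -0.70 to 0.22, limma adjusted p = 0.719), and the other Gfap probe sets differed by 0.02 (95% interval -0.41 to 0.45) and -0.14 (95% interval -0.50 to 0.22). These intervals do not reach the 1.36 of the Slc1a3 probe set taken, but whether Gfap lay at the background of the array could not be checked.

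Sox10 by 1425369_a_at read 0.24, -0.29 and -0.09 in wild type and -0.42, 0.38 and 0.09 in mutants, a difference of 0.06 (SE 0.23, 95% interval -0.46 to 0.58, limma adjusted p = 0.954) with fully mixed groups. Its other probe sets differed by -0.25 (SE 0.16) and -0.31 (SE 0.18), and by the last of these, 1451689_a_at, all mutant arrays lay below all wild type arrays, though only just: the wild type arrays read 0.18, 0.01 and 0.57 and the mutant arrays -0.12, -0.05 and -0.01. S100b by 1419383_at read 0.07, 0.34 and -0.07 against -0.36, -0.33 and 0.07, a difference of -0.32 (SE 0.18, 95% interval -0.74 to 0.10, limma adjusted p = 0.580), and -0.12 (SE 0.15, limma adjusted p = 0.839) by 1434342_at. None of 13 other measured genes with S100 in their names, S100pbp among them, passed in limma. Their median was -0.00047, and 1 had an unadjusted p below 0.05, beside 15.6% of all genes. S100a10, which lies on cell membranes with annexin, had the smallest p (1.25, SE 0.23, limma adjusted p = 0.0587).

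**Figure D3:**
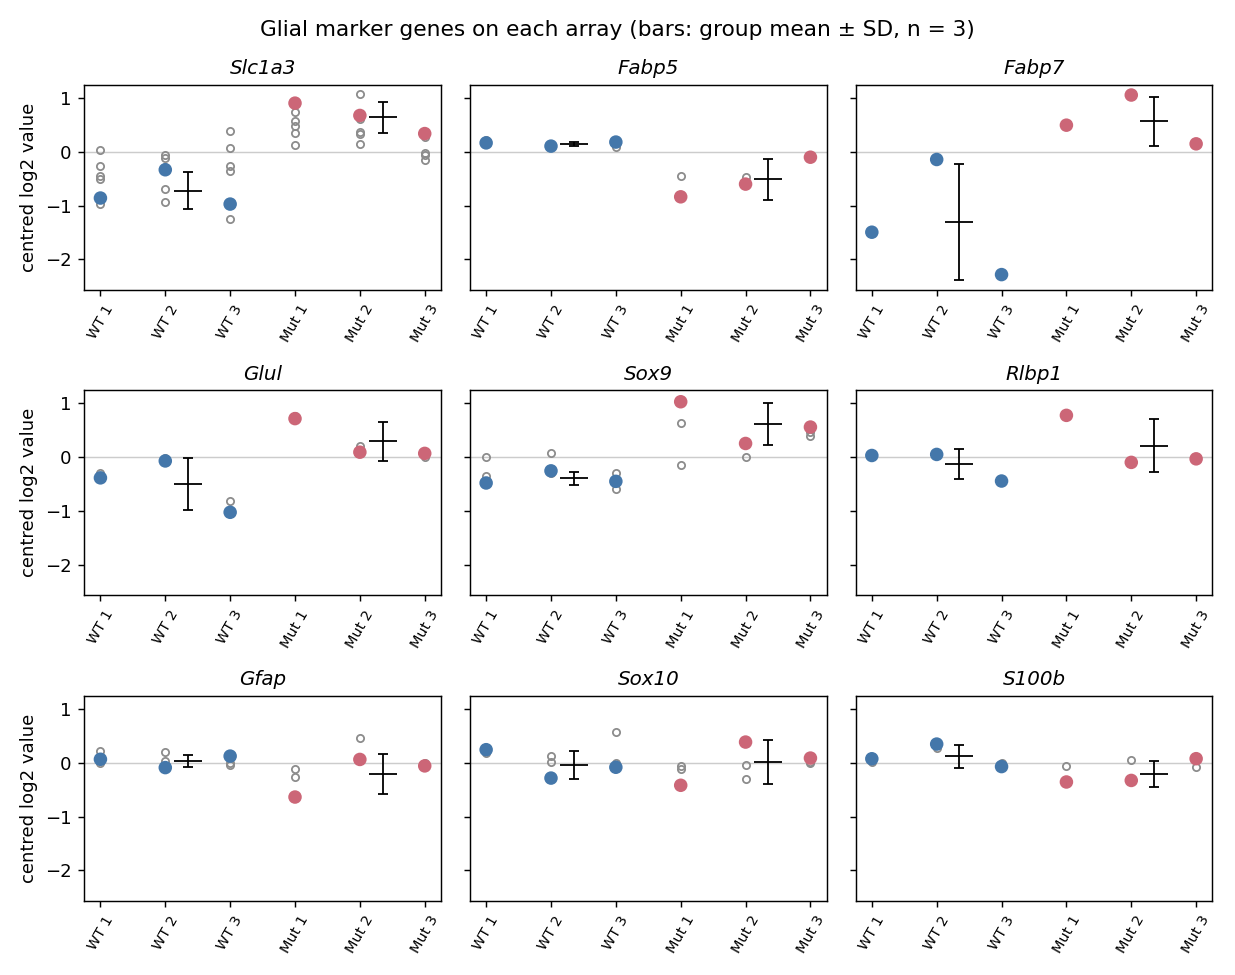
Centred log2 values (vertical axis) of the 9 genes on the 3 wild type (WT, blue) and 3 mutant (Mut, red) arrays by the most variable probe set of each, with group means ± SD in black; open grey circles are the other probe sets of the gene. Slc1a3, Fabp7, Glul and Sox9 separate upward and Fabp5 downward, and mutant 1 is the highest or lowest array for 8 of the 9 genes.

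The extreme values fell mostly on mutant 1 and wild type 3. By the probe set taken, mutant 1 was the highest array for Slc1a3, Glul, Sox9 and Rlbp1 and the lowest for Fabp5, Gfap, Sox10 and S100b. Wild type 3 was the lowest for Slc1a3, Fabp7, Glul and Rlbp1. Fabp7 and Sox10 were instead highest in mutant 2.

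Within the arrays of low hybridization controls (mutant 1 minus the mean of wild type 1 and 2) and those of high controls (the mean of mutant 2 and 3 minus wild type 3), Slc1a3 differed by 1.50 and 1.48 by the probe set taken. The corresponding pairs were 1.31 and 2.88 for Fabp7, 1.39 and 0.85 for Sox9, 0.94 and 1.10 for Glul, 0.73 and 0.38 for Rlbp1 and -0.97 and -0.53 for Fabp5. For these 6 genes both sets of arrays gave the same sign by the probe set taken. Sox10 changed sign, at -0.40 and 0.32, while Gfap (-0.62 and -0.12) and S100b (-0.57 and -0.06) were nearer 0 in the second set. Over the 23 probe sets, 10 were positive and 6 negative in both sets, and 7 differed in sign. The 7 included other probe sets of Slc1a3, 1426341_at (1.29 and -0.03) and 1439072_at (0.31 and -0.29), and of Sox9, 1433889_at (-0.18 and 0.50). Each set has only 1 array of one genotype, so these values have no test of their own.

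**Figure D4:**
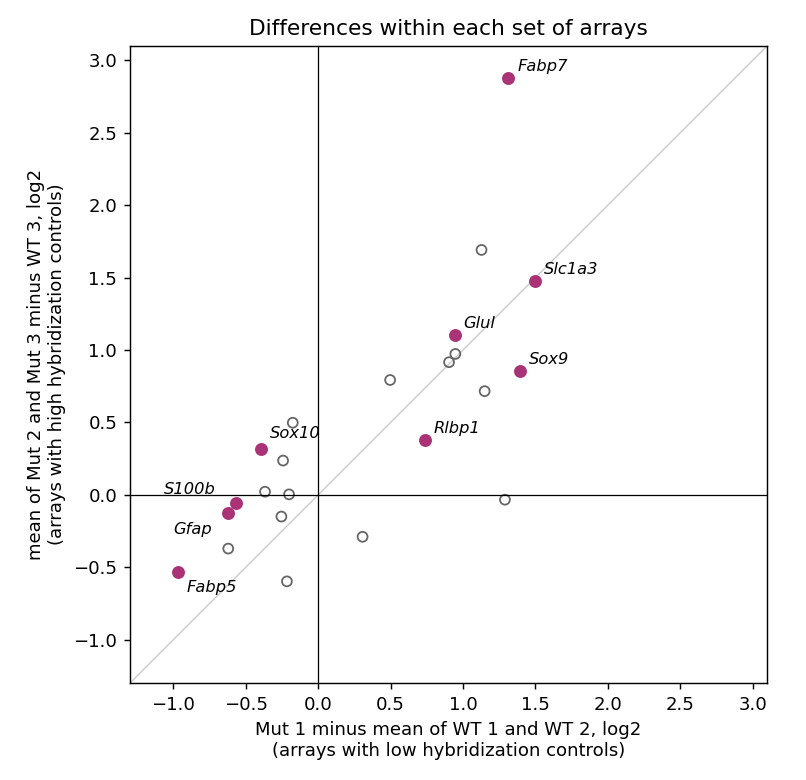
Difference between mutant and wild type within the arrays of low hybridization controls (horizontal axis, log2) and within those of high controls (vertical axis, log2) for the 23 probe sets; purple points are the probe set taken for each gene, open circles the others, and the grey diagonal marks equal values. Slc1a3 lies on the diagonal at 1.50 and 1.48, Fabp7 lies above it, and Sox10 has opposite signs.

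Promoter sequence is shown for Slc1a3 and Fabp7, the members with the largest differences, and for Gfap as a member whose groups overlapped. RefSeq promoters of build GRCm38.p6 were given for 6 of the 9 genes, and the stretches below are the 250 bases before the annotated start, 5′ to 3′ on the strand of the gene. The search was for TGGGAA, the core of the sites bound by RBPJ, the DNA-binding partner of Notch receptors, and for ACAATG and ACAAAG, cores of SOX sites, on both strands; no 2 matches overlapped. Capitals mark TGGGAA read from the opposite strand (TTCCCA).

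Slc1a3 (chr15:8710808-8711057, minus strand): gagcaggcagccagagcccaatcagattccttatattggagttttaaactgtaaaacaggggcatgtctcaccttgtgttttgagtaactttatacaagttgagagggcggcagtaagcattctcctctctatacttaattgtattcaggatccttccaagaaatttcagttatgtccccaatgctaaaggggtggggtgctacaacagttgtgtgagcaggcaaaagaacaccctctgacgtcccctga
Fabp7 (chr10:57784673-57784922, plus strand): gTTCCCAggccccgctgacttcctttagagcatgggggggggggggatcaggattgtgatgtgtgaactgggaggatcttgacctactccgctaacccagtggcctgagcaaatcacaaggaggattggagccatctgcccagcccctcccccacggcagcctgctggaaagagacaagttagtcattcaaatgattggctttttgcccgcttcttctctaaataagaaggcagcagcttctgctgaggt
Gfap (chr11:102897201-102897450, minus strand): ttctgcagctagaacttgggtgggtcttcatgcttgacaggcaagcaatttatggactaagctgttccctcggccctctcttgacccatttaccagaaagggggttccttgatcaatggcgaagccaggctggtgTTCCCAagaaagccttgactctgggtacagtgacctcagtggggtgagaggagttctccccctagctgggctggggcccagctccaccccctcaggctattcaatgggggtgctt

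TGGGAA occurred once each in the promoters of Fabp7 (from -249 to -244 relative to the start), Gfap (-115 to -110) and S100b (-234 to -229), and not in those of Slc1a3, Glul and Rlbp1. Of 32851 mouse promoters of that length 21.59% held it. ACAAAG occurred in Rlbp1 only (-42 to -37), and 25.24% of all promoters held one of the SOX cores. The match was thus present in a member with a large positive difference and in 2 whose groups overlapped; a match in such a short window is a description of letters and not a bound site.

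Glial lists of wider membership held 2 called genes, Gpr37 and Ptprz1. Over all genes 0.489% rose and 0.258% fell. Of 20 measured markers of radial and Müller glia, many of which lens or retinal progenitors also express, 1 rose and 0 fell, 15 had positive differences and the median was 0.49. At an unadjusted p below 0.05 there were 13 of the 20, of which 11 were positive and 2 negative, beside the 15.6% of all genes. In 10 of the 20 all mutant arrays lay above all wild type arrays, which held for 9.48% of all genes. The 1 called was Gpr37 (1.21, SE 0.19, limma adjusted p = 0.0415), an orphan receptor of glia. Id3 (0.88, limma adjusted p = 0.0587) and Hes1 (0.79, limma adjusted p = 0.0622), transcriptional regulators of progenitors, did not pass. Car14 (-0.89, limma adjusted p = 0.0607), a carbonic anhydrase of Müller cells, had the opposite sign and did not pass either. Another carbonic anhydrase of the list, Car2, differed by 0.60 (limma adjusted p = 0.177). Of 20 astrocyte markers, 1 rose and 0 fell, and the median was 0.19. An unadjusted p below 0.05 was reached by 6 (5 positive, 1 negative), beside the 15.6% of all genes. The gene that rose was Ptprz1 (1.31, SE 0.16, limma adjusted p = 0.0254), a receptor phosphatase of radial glia, whose 3 probe sets ranged from 0.33 to 1.31. Aldh1l1, a defining astrocyte enzyme, differed by -0.83 (SE 0.20, limma adjusted p = 0.126), although its other probe set read 0.13, and Ncan, a matrix proteoglycan, by 0.78 (limma adjusted p = 0.184). None of 17 Schwann cell and oligodendrocyte genes passed in limma, 5 had an unadjusted p below 0.05, all positive, beside the 8.22% of all genes with a positive difference at that p, and the median was 0.02. Besides Sox8, the smallest p belonged to Ngfr (1.63, SE 0.35, limma adjusted p = 0.0794), a neurotrophin receptor, whose 3 probe sets reached down to -0.26, and Cnp (0.85, limma adjusted p = 0.177), a myelin enzyme. The lowest of the 3 Cnp probe sets read -0.08.

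Intermediate filaments and genes linked to Notch signalling were described for comparison with Gfap and Fabp7. Of 11 filament genes, limma called none by the probe set taken, 5 had an unadjusted p below 0.05, beside 15.6% of all genes, and the median was 0.18. The neuronal filaments Nefl (2.46) and Ina (1.81) passed by other probe sets only (2.55, limma adjusted p = 0.0422, for Nefl, and 2.11, limma adjusted p = 0.0372, for Ina), while Synm differed by -0.71 (limma adjusted p = 0.0897). Of 11 genes linked to Notch signalling, not all of them direct targets, 1 rose and none fell, with a median of 0.29. Over all genes 0.489% rose and 0.258% fell. The gene that rose was Hes6 (1.29, SE 0.21, limma adjusted p = 0.0469), a neurogenic factor that opposes Hes1. Hes1 itself differed by 0.79 (limma adjusted p = 0.0622), Dtx1 by 0.90 (limma adjusted p = 0.125) and Ccnd1 by 1.41 (limma adjusted p = 0.0919).

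Markers of retinal neurons and their progenitors stood higher in the same arrays. Of 22 measured, 11 rose and 0 fell, where 0.489% of all genes rose and 0.258% fell, and the median difference was 1.68. The 11 were Otx2 (2.31), Neurod4 (2.28), Neurog2 (2.27), Isl1 (2.04), Tubb3 (1.94), Atoh7 (1.85), Syt1 (1.70), Ptf1a (1.40), Six6 (1.36), Elavl3 (1.27) and Lhx2 (1.19). By the lowest of their probe sets Syt1 differed by -0.29 and Neurod4 by 0.11, while Elavl3 differed by 0.68, Atoh7 by 1.48 and Isl1 by 1.82. The mean of this list ran from -1.16 to -0.43 in wild type and from 0.43 to 1.05 in mutants, against -0.56 to -0.08 and 0.12 to 0.18 for the mean of the 9 glial genes. Its order of arrays from lowest to highest (wild type 3, 1 and 2, then mutant 3, 1 and 2) was that of Fabp7, whereas Slc1a3 had mutant 1 above mutant 2. Fitted beside the retinal mean of each array, Slc1a3 differed by 0.26 (SE 0.54, limma adjusted p = 1.00) and Fabp7 by -1.68 (SE 0.59, unadjusted p = 0.0209, limma adjusted p = 1.00). This covariate nearly coincides with genotype, and its SEs for the 23 probe sets ran from 0.44 to 0.78. The values hold no level, so it cannot be said which retinal markers are at 0, and the part of retinal RNA in the differences of the glial genes was not tested.

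Other cell types gave values smaller than those of the retinal list, or of mixed sign. All 14 macrophage and leukocyte markers had positive differences, with a median of 0.99, larger than the 0.34 of the 9 glial genes. Limma called none, and 9 had an unadjusted p below 0.05, beside the 8.22% of all genes with a positive difference at that p. The list mean ran from -1.17 to 0.11 in wild type and from 0.06 to 0.50 in mutants, so wild type 2 lay above mutant 1. Limma called none of 13 endothelial markers (median 0.02, 0 at an unadjusted p below 0.05) and none of 9 pigment cell markers (median -0.05, 3 at an unadjusted p below 0.05). Over all genes 15.6% reached that p. Of 12 mesenchyme and fibroblast markers 1 rose, Col6a1 (1.15, SE 0.18), where 0.489% of all genes rose, and the median was -0.05. Of 17 lens genes, which define the tissue, 2 fell and 0 rose, where 0.258% of all genes fell. The 2 were Dnase2b (-2.47), the nuclease of fibre cell denucleation, and Maf (-1.32). The lens list had a median of -0.39, with means from 0.21 to 0.34 in wild type against -0.37 to -0.20 in mutants. The part of these cell types in the glial values was not tested.

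**Figure D5:**
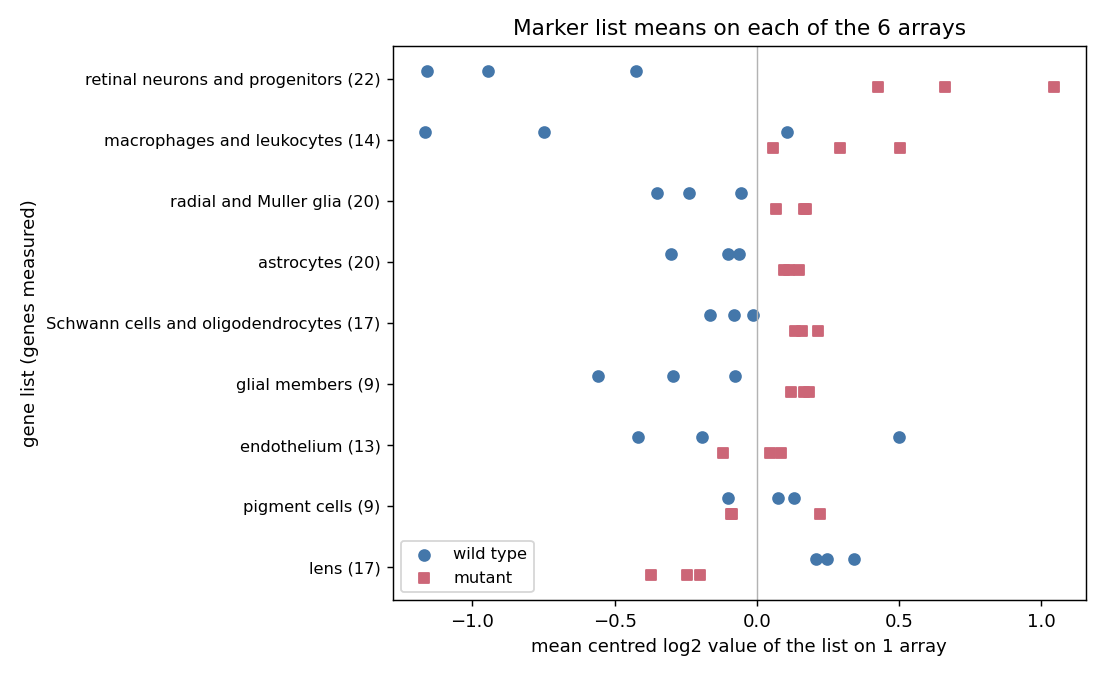
Mean centred log2 value (horizontal axis) of each marker list on each array, blue circles for wild type and red squares for mutant, with the number of genes measured in parentheses. The 9 glial genes separate the groups by less than the retinal list, and the lens list separates them in the opposite direction.

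The genes whose values lay nearest to those of Slc1a3 over the 6 arrays, among all named genes other than the 9, were Trp53inp1, Plxnc1 and Camk2n1. Their root mean square differences from Slc1a3 were 0.12, 0.13 and 0.13, and their differences between genotypes were 1.34, 1.33 and 1.33. Nearest to Fabp7 were Rtn1, Celf4 and Gap43, at 0.17, 0.21 and 0.21, with differences of 1.94, 1.81 and 1.99 and limma adjusted p = 0.121, 0.0641 and 0.0688. Gap43, a growth cone protein, is itself in the retinal list, and Rtn1 and Celf4 are known as genes of neurons. These neighbours describe 6 arrays of which 3 share a genotype, so that nearness rests in part on a difference of like size between the genotypes.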

How the data were processed

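RNA from whole lenses was labelled with biotin and hybridized to 6 oligonucleotide arrays, 3 per genotype. The deposited log2 values were made with RMA by the authors, per the submitters' processing notes, and their version, build and centring step are not given in the sources used here. Base 2 is taken from RMA's usual output. Of 45101 probe sets 64 were controls. The other 45037 were fitted with limma 3.58.1 in R 4.3.3 (lmFit, eBayes, genotype alone), Benjamini-Hochberg adjusted, at a threshold of 0.05. The script was tested on simulated data. Genes were counted by their most variable probe set over the 6 arrays, which favours large differences of either sign. All 23 member probe sets matched RefSeq identifiers. Companion genes are named where they passed, with up to 3 others of smallest p. Col9a3, Nefl and Ina by other probe sets, and Car2, were added after their values were seen. The members and gene lists were chosen with earlier results of these data known. A filter on dim probe sets needs levels and was not run. The number of arrays limits the precision.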

Additional observations from a re-analysis of the deposited data

How the results depend on the processing

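Leaving out the retinal covariate, 20 of the 23 member probe sets kept their sign in every alternative run, and 14 of 23 with it. The count of members called higher was 4 with quantile normalization repeated, 2 with array medians subtracted, 5 with array weights, 5 among probe sets more variable than the median, 4 with the replicate number as a block, 7 with the hybridization control block (an alternative chosen after seeing the data) and 0 with the retinal covariate (2 at an unadjusted p below 0.05, and 1273 over all probe sets), and ran from 0 to 2 with 1 array left out. Over all probe sets the calls numbered 584, 203, 889, 738, 530, 790 and 0 in that order against 211, and 8, 155, 49, 12, 7 and 91 without wild type 1, 2, 3 and mutant 1, 2, 3. No member was called lower in any of them. Slc1a3 ran from 1.23 to 1.55 with 1 array left out and was 0.26 with the retinal covariate. By the mean over its 6 probe sets Slc1a3 differed by 0.83 and passed (limma adjusted p = 0.0334, adjusted over genes). Fabp7 ran from 1.38 to 2.45, passed at 1.87 among the more variable probe sets and with the replicate block (adjusted p = 0.0188), but reversed to -1.68 under the retinal covariate. Sox9 passed at 1.01 with array weights, at 1.01 among the more variable probe sets and at 1.12 with the hybridization control block. By the mean over its 3 probe sets Sox9 differed by 0.68 and did not pass (limma adjusted p = 0.0566, adjusted over genes). With the retinal covariate Slc1a3 reversed to -0.13 (1426340_at) and -0.67 (1440491_at), Glul to -0.21 and -0.32, Gfap 1426508_at to -0.57 and Sox10 1451689_a_at to 0.32. Gfap 1426508_at, near 0, also read -0.018 after quantile normalization, -0.058 with array weights, -0.0025 with the hybridization control block and -0.16 to 0.13 with 1 array left out. Sox10 1425369_a_at read -0.025, -0.039 and -0.17 with array weights, that block and the mean over its probe sets, and -0.12 to 0.28 with 1 array left out, where Slc1a3 1439072_at ran from -0.033 to 0.29. Over 16 alternatives limma's adjusted p ran from 0.000464 to 1.00 for Slc1a3, which passed in 10, from 1.01e-07 to 1.00 for Fabp7 (3), from 0.0256 to 1.00 for Sox9 (3) and from 0.0288 to 1.00 for Glul (1). The causes were not tested. The labels do not say that a replicate number pairs the arrays, and deviations of same-numbered arrays correlated at 0.33, -0.14 and 0.26, so the replicate block is given here only. The lowest adjusted p of Slc1a3, Fabp7 and Sox9 came from the fit of more variable probe sets, which is counted among the passes. Its filter used the spread over all 6 arrays, and that spread includes the difference between genotypes. In this fit limma estimated 1 common variance, so each member probe set had an SE of 0.30, where Fabp7 had 0.47 in the main fit. These adjusted p are therefore not read as support.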
